A study of Salmo salar with 12 samples.

Results

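The acid phosphatases ACP5 and ACP1 were followed in livers of Atlantic salmon parr (Salmo salar) held for 48 h in water with depleted uranium (U). ACP5 is tartrate-resistant acid phosphatase type 5, a metal-containing enzyme of the lysosome and the secretory route that in mammals is known from macrophages and bone-resorbing osteoclasts. ACP1 is the low molecular weight protein tyrosine phosphatase, a small cytosolic enzyme that removes phosphate from tyrosine residues of proteins and, in mammals, also from flavin mononucleotide. The enzymes are unrelated in fold and cell compartment, but curated mammalian pathways place both among the phosphatases of NAD phosphorylation and dephosphorylation and of riboflavin phosphate turnover.

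Each enzyme was read by 1 probe, CUST_9841_PI426552878 for ACP5 and CUST_9722_PI426552878 for ACP1, out of 55468 salmonid probes on the array. The probes were designed on expressed sequence contigs (contig 5623669 for ACP5 and contig 5623100 for ACP1), and each of these contigs carried no other probe. The salmon reference annotation (Ssal_v3.1) lists genes under the symbols acp5b and acp1. The array files hold no probe sequences, so it was not settled which salmon gene copy each probe reads. The names came from the study's list of genes called changed on these same arrays. The difference from the control was therefore what selected both enzymes. All their values against the control are given as a description, without p-values, and nothing is read from whether they were called.

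The exposed groups were low U (0.25 mg/L), medium U (0.5 mg/L) and high U (1.0 mg/L), with uranium supplied as uranyl acetate dihydrate, and the control group was kept in the same lake water with 0 mg/L added. All fish were unfed, held in the dark in aerated static water and sampled at 48 h. Each group had 3 liver RNA samples, each on 1 one-colour (Cy3) array, and every one of 3 slides carried 1 array of each group. The strain and sex of the fish are not given in the sources used here. The fish number, fish weight, tank volume and fish loading in the methods correspond to 1 tank per group. Dose and tank therefore cannot be told apart. The spread between the arrays of a group holds the spread between its liver samples and that between slides. Whole liver was used, so fewer cells of a type and less RNA per cell cannot be told apart.

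The arrays differed in brightness. The 75th percentile of probe intensity was 68.2 to 152 on the 9 exposed arrays and 55.3 to 73.5 on the 3 control arrays, and the high U arrays (68.2 to 93.8) lay closest to the control. Levels are therefore given on the log2 scale relative to the 75th percentile of their own array, which is 0 on this scale. In the authors' own value table, 6 of the 12 columns matched an array of the same group with another replicate number. Replicate numbers here follow the scanner files. The group of every column was the same in both sources, so no group value changes with this.

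ACP5 had the larger change. Its intensity before scaling was 98.5, 45.7 and 117 in control replicates 1, 2 and 3. Under low U the intensity was 607, 679 and 499, under medium U 598, 858 and 503, and under high U 248, 418 and 342. Even the dimmest exposed array, high U replicate 1, was brighter for this probe than the brightest control array. The spot was 8.14 to 23.7 times its local background on exposed arrays and 2.89 to 5.76 times on control arrays. It was called well above background by the scanner software on all 12 arrays, with no saturation and no outlier flag. The scanner's own error estimate reached 11.9% of the intensity on the dimmest control array.

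On the scaled log2 levels, ACP5 was 0.42, -0.27 and 0.74 in the control. The exposed levels were 2.44, 2.34 and 1.98 under low U, 1.97, 2.49 and 2.06 under medium U and 1.86, 2.24 and 1.87 under high U. All 9 exposed arrays lay above every control array, and the 3 doses overlapped each other. The group means were 0.30 ± 0.52 in the control, 2.25 ± 0.24 under low U, 2.17 ± 0.28 under medium U and 1.99 ± 0.22 under high U (SD, n = 3 each). The control had the widest spread of the 4 groups, set by control replicate 2. The log2 change from the control was 1.96 under low U, 1.88 under medium U and 1.70 under high U, each with a standard error of 0.27. These are 3.88-fold, 3.67-fold and 3.24-fold higher levels. Over all 9 exposed arrays the log2 change was 1.84 (standard error 0.22), or 3.59-fold.

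**Figure D1:**
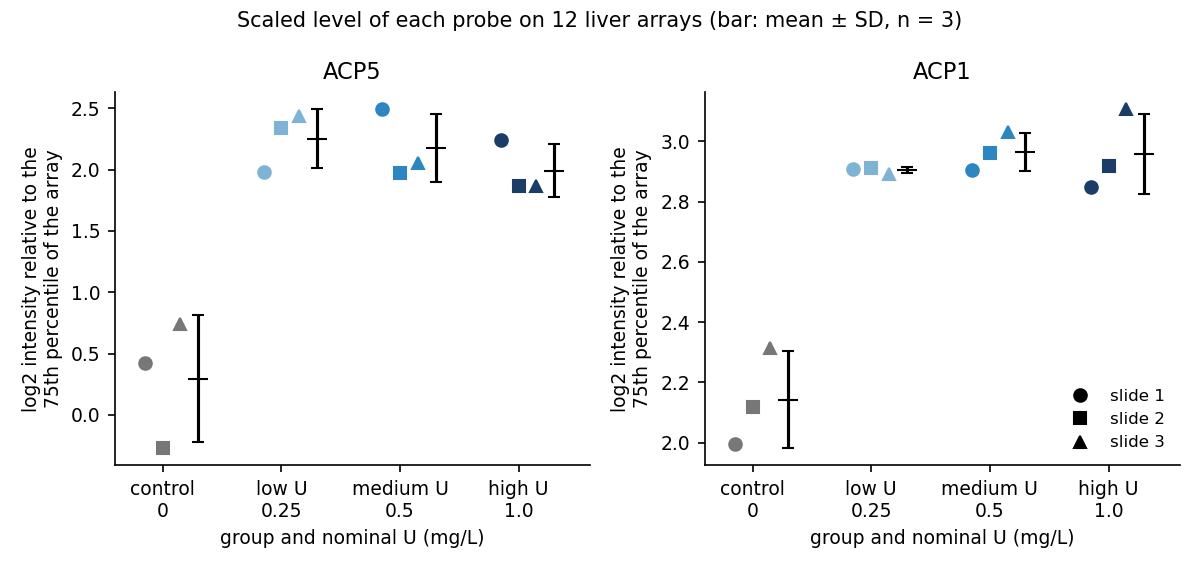
Scaled log2 level of the ACP5 probe and the ACP1 probe (vertical axes, each on its own range) on 12 arrays by group and nominal U (mg/L). Points are arrays, with the slide as the symbol, and bars are the mean ± SD of 3 arrays. For both enzymes all 9 exposed arrays lie above all 3 control arrays, and the doses overlap.

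ACP1 was also higher at every dose, by a smaller and more even step. Its intensity before scaling was 293, 240 and 350 in control replicates 1, 2 and 3. It was 831, 1013 and 951 under low U, 1188, 1142 and 988 under medium U and 516, 636 and 807 under high U. No exposed array was as dim as any control array. The spot was 22.4 to 52.5 times its local background on exposed arrays and 11.3 to 14.6 times on control arrays, so the ACP1 probe was well clear of the background in both.

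The scaled log2 level of ACP1 was 1.99, 2.12 and 2.32 in the control. It was 2.89, 2.91 and 2.91 under low U, 2.96, 2.90 and 3.03 under medium U and 2.92, 2.85 and 3.11 under high U. Again all 9 exposed arrays lay above every control array. The group means were 2.14 ± 0.16 in the control, 2.90 ± 0.01 under low U, 2.97 ± 0.06 under medium U and 2.96 ± 0.13 under high U (SD, n = 3 each). The log2 change from the control was 0.76, 0.82 and 0.82 under low, medium and high U, each with a standard error of 0.15. That made ACP1 1.70-fold, 1.77-fold and 1.76-fold higher, and 1.74-fold higher over all 9 exposed arrays (log2 change 0.80, standard error 0.12).

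In the fit of all 4 groups, both enzymes passed the call rule at every dose. The rule was an adjusted p below 0.05 in limma with a fold change of at least 1.5. Fits of only the groups compared called 1 probe under low U and 1 under high U, so not both enzymes passed there. Since both were picked for this contrast, nothing is read from these calls. The share of all 29855 tested probes that passed in the higher direction was 4% under low U, 6.43% under medium U, 2.43% under high U and 7.83% over all exposed arrays. For 8.3% of probes with a value on every array, all exposed arrays lay above all control arrays. In the order of changes over all exposed arrays, 0.533% of tested probes had a larger increase than ACP5 and 8.32% had a larger increase than ACP1. The median change of all tested probes was 0.08 under low U, 0.08 under medium U and 0.04 over all exposed arrays on the log2 scale.

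Because the raw brightness of the arrays moved with exposure, the plot of probe intensity against array brightness shows each array's ratio directly. The medium U group had the highest median brightness, with low and medium U arrays overlapping. A line through the control ratio passes below the exposed arrays for both probes. That ratio is the scaled level in another form, so the plot is not separate evidence of a change. The changes were also computed relative to 7 spike-in probes, which report a fixed amount of added RNA. On that scale ACP5 was higher by a log2 of 2.74 under low U, 2.87 under medium U and 1.93 under high U, and ACP1 by 1.55, 1.82 and 1.05. The direction held and the sizes grew, most at low and medium U. The part of overall array brightness in these values was not tested.

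**Figure D2:**
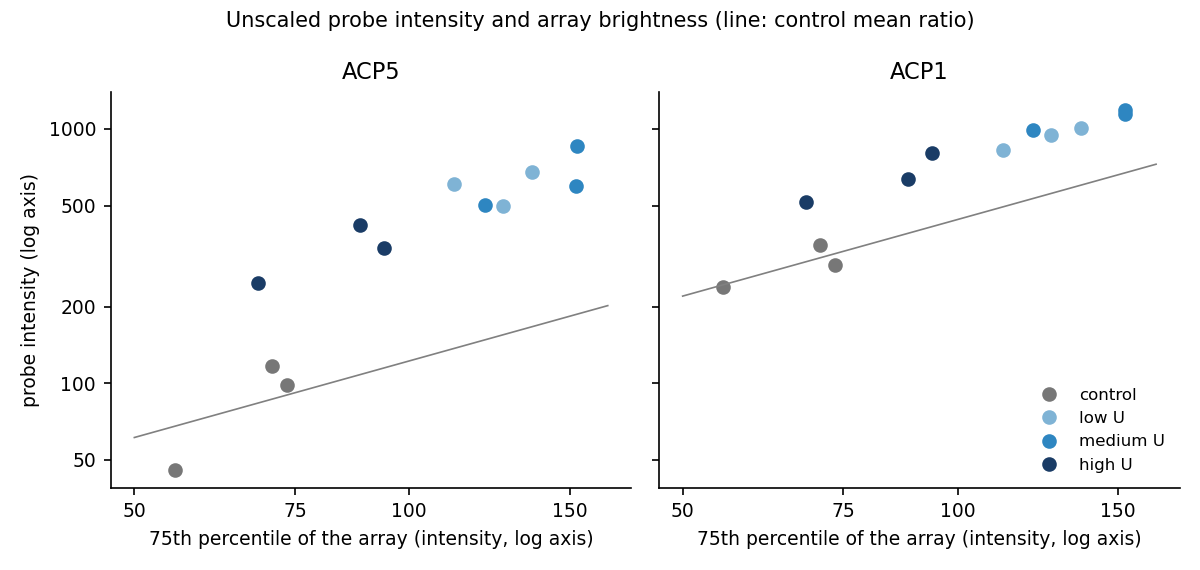
Unscaled intensity of each probe (vertical, log axis) against the 75th percentile of its array (horizontal, log axis), 1 point per array, with a line at the mean control ratio. All 9 exposed points lie above the line for both probes, which restates the scaled levels and is not separate evidence. The high U arrays (68.2 to 93.8) are closest in brightness to the control arrays (55.3 to 73.5).

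A difference between the enzymes on the same array is free of the scaling of that array. In signal, ACP5 was below ACP1 on every array. The log2 level of ACP5 minus that of ACP1 ran from -2.39 to -1.57 on control arrays and from -1.24 to -0.41 on exposed arrays. The change of ACP5 minus the change of ACP1 was 1.19 ± 0.25 under low U, 1.05 ± 0.33 under medium U and 0.88 ± 0.33 under high U on the log2 scale (SD, n = 3 each). Around a control mean of 0 by construction, the control arrays had an SD of 0.47. The 9 exposed arrays ran from 0.61 (high U replicate 3) to 1.43 (medium U replicate 2), and the control arrays were 0.27, -0.54 and 0.27. ACP5 thus moved further than ACP1 on every exposed array. No test was made, because both were selected on the same contrast. The size of this difference depended on the background treatment. With normexp correction of the median spot signal, a model-based background correction with an offset of 50, it was smaller. It was then 0.61 under low U, 0.49 under medium U and 0.44 under high U. The ACP5 spot was the dimmer one on control arrays, at under 6 times its local background. Its control intensities of 45.7 to 117 were nearer to the size of the offset than those of ACP1 (240 to 350).

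**Figure D3:**
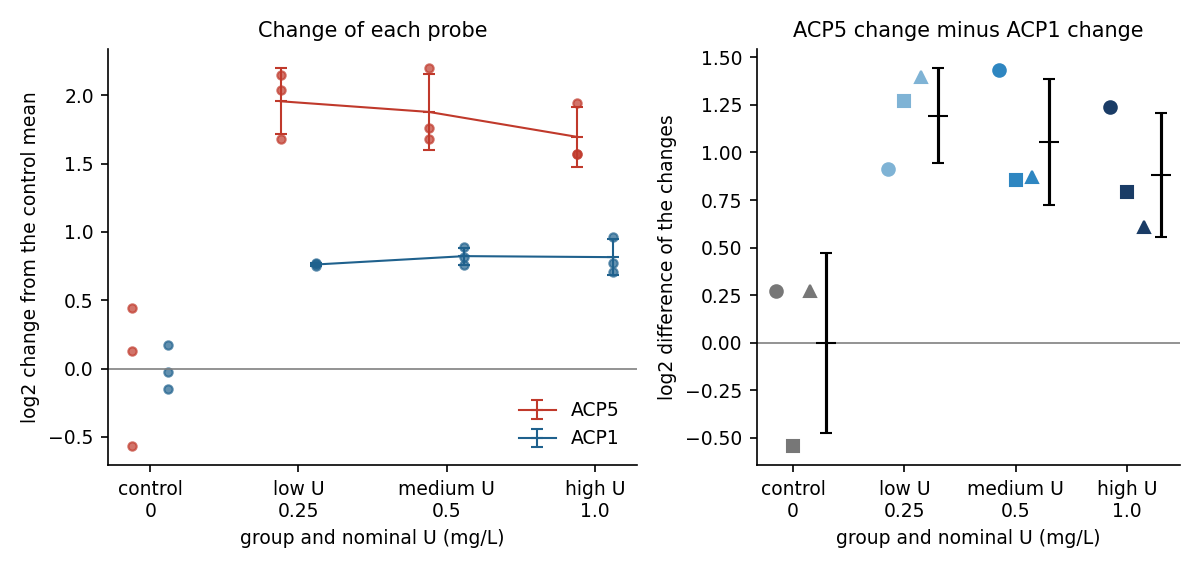
Left, log2 change of each array from the control mean for ACP5 and ACP1 by group and nominal U (mg/L), with the mean ± SD of 3 arrays as lines and bars. Right, ACP5 change minus ACP1 change on each array, with the slide as the symbol (circle, slide 1, square, slide 2, triangle, slide 3) and mean ± SD of 3 arrays. The change of ACP5 is above that of ACP1 at each dose, and the difference of the changes lies between 0.61 and 1.43 on exposed arrays.

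The shape over doses was compared between the 3 pairs of doses for both enzymes, 6 comparisons in all, with limma and Benjamini-Hochberg adjustment over all probes tested. The study's selection over 4 groups used these arrays too, so the pairs are not fully apart from it. ACP5 had its highest mean under low U and its lowest exposed mean under high U. High U minus low U was -0.26 on the log2 scale (95% interval -0.86 to 0.34, limma adjusted p = 0.946). High U minus medium U was -0.18 (-0.78 to 0.41, limma adjusted p = 0.990), and medium U minus low U was -0.078 (-0.68 to 0.52). The intervals leave room for a fall of more than a log2 of 0.8 between the lowest and highest dose, and for a small rise.

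For ACP1 the doses lay closer together. High U minus low U was 0.054 (95% interval -0.28 to 0.39, limma adjusted p = 0.995), high U minus medium U was -0.0074 (-0.34 to 0.33) and medium U minus low U was 0.061 (-0.27 to 0.40). Among the 6 comparisons the lowest adjusted p was 0.946 and the lowest unadjusted p in limma was 0.357, so no pair of doses was told apart for either enzyme. Among all probes, limma called 0 between doses in each pair, a share of 0%. An unadjusted p below 0.05 in limma was found for 596 probes between medium and low U. The number was 1930 between high and medium U and 1451 between high and low U. Without any difference between doses, a share of 0.05 of the 29855 tested probes would be expected to reach this. Nothing is read from these counts. A Tukey comparison over all tested probes, with Benjamini-Hochberg adjustment of its p-values, called 0 in each pair. The study applied its Tukey step only to genes that passed its one-way test, so its own procedure was not repeated here. Relative to the spike-ins, high U minus medium U was -0.94 for ACP5 (limma adjusted p = 0.0605) and -0.77 for ACP1 (limma adjusted p = 0.0351). On that scale 10781 of the 29855 tested probes were called for this pair, so nothing is read from the call of ACP1. For both enzymes the sign was the same as in the main scaling. The size of both differences and the call of ACP1 depended on the scaling of the arrays.

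Each slide held 1 array of every group, so the change could be read within slides. Over the 3 doses ACP5 was higher than the control array of the same slide by a log2 of 1.82 on slide 1, 2.33 on slide 2 and 1.38 on slide 3. The value of slide 2 rests on control replicate 2, which had the lowest ACP5 level of all arrays. ACP1 was higher by 0.89, 0.81 and 0.69 on the same slides. The change of ACP5 exceeded that of ACP1 within each slide, by 0.92, 1.52 and 0.69. The course over doses differed between slides for ACP5: on slide 1 medium U was above low U by 0.51, and on slides 2 and 3 medium U minus low U was -0.36 and -0.38. High U was below medium U for ACP5 on all 3 slides (-0.25, -0.11 and -0.19), and so was the ACP5 minus ACP1 difference (-0.19, -0.066 and -0.26), whereas ACP1 was -0.056 and -0.044 on slides 1 and 2 and 0.077 on slide 3.

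**Figure D4:**
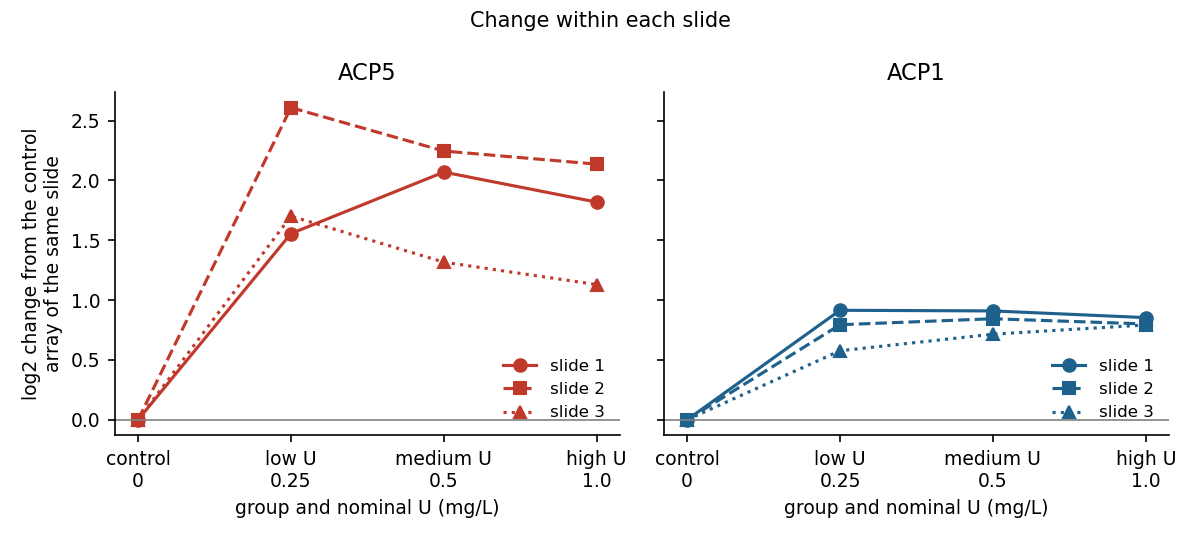
Log2 change of ACP5 and ACP1 from the control array of the same slide (vertical) by group and nominal U (mg/L), 1 line per slide. ACP5 rises by 1.13 to 2.61 at single doses and ACP1 by 0.58 to 0.91, and the order of the doses is not the same on the 3 slides.

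Leaving out control replicate 2, the lowest ACP5 array, gave the smallest ACP5 change over all exposed arrays (1.56), and leaving out control replicate 3 gave the largest (2.06). For ACP1 the 12 such values ran from 0.73 to 0.89. The plot of settings gives these values together with those under other background, scaling and model choices. The change of ACP5 lay between 1.44 and 2.51 and that of ACP1 between 0.73 and 1.47 over all of them, with ACP5 the larger in each.

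**Figure D5:**
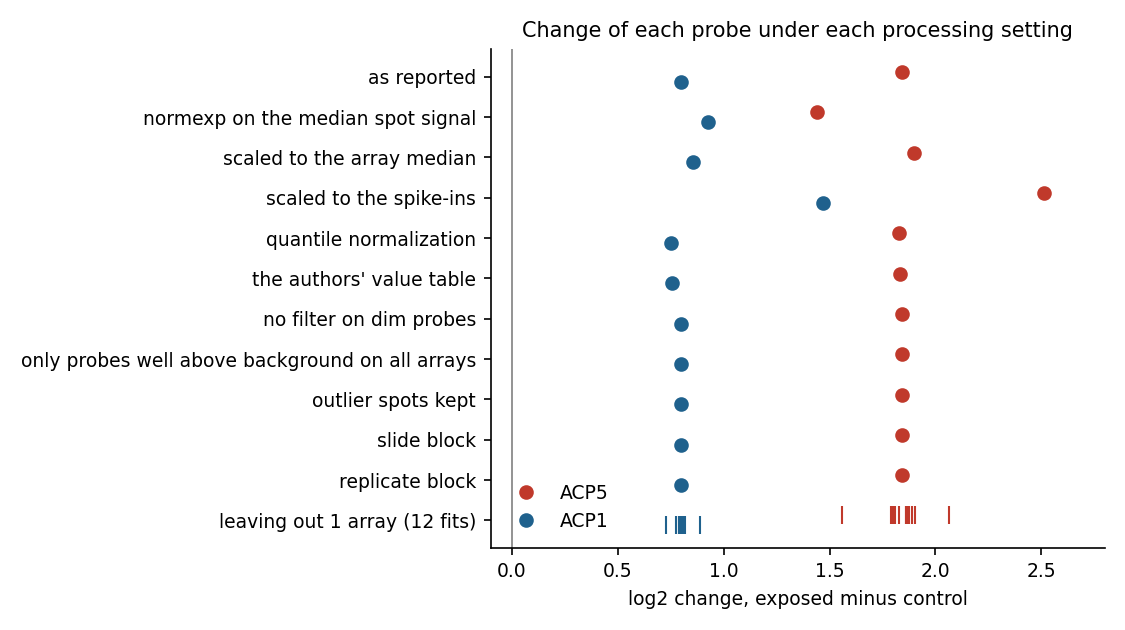
Log2 change over all 9 exposed arrays from the control (horizontal) under each processing setting (rows), with ACP5 and ACP1 as points and the 12 fits that each leave out 1 array as ticks. ACP5 is to the right of ACP1 in every row, closest with normexp on the median spot signal (1.44 for ACP5 and 0.93 for ACP1).

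Across the 12 arrays the ACP5 and ACP1 levels had a Pearson r of 0.90, and after the group means were removed the r was 0.0040. Among 29687 probes with a value on every array, 648 other probes had a higher r with ACP5 than ACP1 had, and 512 had a higher r with ACP1 than ACP5 had. These correlations are a description over 12 arrays of 3 slides that share the same exposure step.

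The 5 probes with the highest r with ACP5 over the 12 arrays, each 0.98, were protocadherin 2 gamma 29, PRDX3, CDC42, SUSD2 and gch1. Their r after removal of the group means was not computed. PRDX3, a mitochondrial peroxiredoxin that reduces hydrogen peroxide, was higher by a log2 of 1.56 under low U, 1.51 under medium U and 1.45 under high U. CDC42, a small GTPase of the actin cytoskeleton, was higher by 0.81, 0.76 and 0.78. The gch1 gene encodes GTP cyclohydrolase 1, the entry enzyme of tetrahydrobiopterin synthesis, and was higher by 1.92, 2.04 and 1.71. SUSD2 was higher by 1.80, 1.92 and 1.65. The protocadherin probe was higher by 1.69, 1.73 and 1.45, and was well above background on 1 of 3 control arrays.

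The probes with the highest r with ACP1, also 0.98 each, included RPLP0 and rps3a, proteins of the large and the small ribosomal subunit. Gnb2l1 (RACK1), a scaffold protein on the small subunit, was also among them. RPLP0 was higher by a log2 of 2.21 under low U, 2.33 under medium U and 2.41 under high U, and rps3a by 1.47, 1.61 and 1.71. Gnb2l1 was higher by 2.15, 2.38 and 2.45. Nedd8, a ubiquitin-like modifier that activates cullin ubiquitin ligases, was higher by 1.01, 1.08 and 1.19. The fifth probe, higher by 1.23, 1.28 and 1.16, is named ENPP2 in one of the study's tables and COLGALT1 in the other. In these neighbours of ACP1 the change was larger than that of ACP1 itself (0.76, 0.82 and 0.82), as r does not depend on size.

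Of 14 gene symbols listed for NAD phosphorylation and dephosphorylation, 3 had a named probe. Some of the symbols are older names of a gene that is also listed under its current name. Besides ACP5 and ACP1, which rose, this was NNT, the mitochondrial transhydrogenase that passes hydride from NADH to NADP. NNT fell, with scaled levels of 2.40 to 2.76 on exposed arrays and 3.34 to 3.56 on control arrays. Its log2 change was -0.75 under low U, -0.98 under medium U and -0.99 under high U. The list thus had 2 genes called higher and 1 called lower over all exposed arrays. Its median change of 0.80 was the value of ACP1 itself, which was selected on this contrast, so nothing is read from it. Among all probes the share called lower was 2.14% under low U, 4.85% under medium U, 1.04% under high U and 5.39% over all exposed arrays. Names exist only for probes that the study called changed on these arrays, so none of the list counts here is independent evidence of a direction.

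Of 10 genes listed for riboflavin phosphate turnover, 3 had a named probe and all were called higher. Over all exposed arrays 7.83% of all tested probes were called higher. The named probes were ACP5, ACP1 and the probe with the names ENPP2 and COLGALT1, whose own change of 1.22 was the median. ACP5 and ACP1 were selected on this contrast and names exist only for probes that the study called, so nothing is read from that count. Of 28 protein tyrosine phosphatases, the family by function of ACP1, 3 had a named probe. PTPRF, a receptor-type member, was higher by 0.83 under low U and 1.17 under high U on the log2 scale, at levels of 1.26 to 2.04 on exposed arrays and 0.60 to 0.75 on control arrays. PTPN12 was too dim to be tested, being well above background on 0 of 9 exposed arrays and 1 of 3 control arrays.

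Of 51 gene symbols listed for the lysosome, the compartment of ACP5, 2 had a named probe. The symbols include an older name of a listed gene. The second was ATP6V1H, a subunit of the proton pump that acidifies lysosomes. It rose by a log2 of 1.41 under low U, 1.61 under medium U and 1.46 under high U, and its levels were 3.15 to 3.62 on exposed arrays and 1.59 to 2.46 on control arrays. Lysosomal acid hydrolases other than ACP5 had no named probe, so their course was not analysed here.

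ACP5 is a marker of macrophages and osteoclasts in mammals, and 2 of 26 other markers of these cells had a named probe. CD68, a lysosomal membrane glycoprotein of macrophages, had levels of 1.76 to 2.20 in the control, 3.15 to 3.31 under low U, 2.89 to 3.23 under medium U and 1.95 to 2.37 under high U. Its change was 1.27 under low U, 1.14 under medium U and 0.15 under high U, and it was called higher at the lower doses but not under high U. High U minus medium U for CD68 was -0.99 on the log2 scale and did not pass the test (limma adjusted p = 0.430). The lowest limma adjusted p of any tested probe for this pair was 0.418, so no probe passed. The second probe fell, but its identity is in doubt: the study maps it to LY86, a partner of a Toll-like receptor homologue on macrophages and B cells, and describes it as an erythrocyte band protein-like gene. It had log2 changes of -1.43, -2.02 and -1.98 under low, medium and high U. The CD68 levels under high U overlapped with those of the control. The part of macrophage number in the ACP5 values was not tested.

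Of 12 red blood cell marker symbols, 1 had a named probe. This beta globin probe, hbb1, fell, with log2 changes of -1.29, -1.66 and -0.88 and levels of 1.22 to 2.12 on exposed arrays and 2.86 to 2.96 on control arrays. Of 21 hepatocyte marker symbols, the 5 named probes were coagulation factors F7, F9 and F10, made by hepatocytes. Among these, 1 of the F9 probes is described as factor VII. All 5 were called higher with a median change of 1.54, against 7.83% of all tested probes called higher over exposed arrays. As names exist only for probes that the study called, nothing is read from that count. Albumin and the apolipoproteins had no named probe, so the tissue could not be checked on them. The part of these cell types in the changes of ACP5 and ACP1 was not tested.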

How the data were processed

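The authors labelled liver RNA with Cy3, hybridised it to a custom Agilent salmonid array and read the scans with Agilent Feature Extraction 10.7. The deposited intensity of each spot is background-subtracted and detrended, without scaling between arrays. A second deposited source, the authors' log2 value table (40267 probes), was an alternative. Of its 12 columns, 6 correlated best with an array of the same group that carries another replicate number (r of 0.969 to 0.998 with the best match, after centring each probe). Slides were numbered in the order of their barcodes. The value table's replicate number was then the slide of the matched array in all 12 columns, and the scanner files' number was their slide in 6. Which numbering is right was not settled.

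From the intensities, control spots were left out, outlier spots were set to missing, repeated spots were averaged as log2 intensity and each array was scaled to its 75th percentile. Probes well above background on all arrays of at least 1 group, with at least 2 values in each group, were tested (29855). One limma fit (version 3.58.1, R 4.3.3) covered all 4 groups, two-sided, with Benjamini-Hochberg adjustment. It had no slide term, after the one-way design of the study's own test, and a slide block was run as an alternative. Steps were tested on simulated data. With no replicate tanks described, p-values measure the spread between these samples and their slides, and 3 arrays per group limit the precision.

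The enzymes and gene lists were chosen with earlier results of these data known. Genes named are both enzymes, the 5 probes most like each, and listed genes with a named probe. Probes were named by matching the study's fold changes to those computed from the value table (relative tolerance 2e-05, 881 probes named). The authors' own fold changes and p-values served only for this and are not reported. Figures were made with Python 3.11.15 and matplotlib 3.10.9. Alternatives covered background, scaling, filters, blocks, the samples in the fit and leaving out each array.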

Additional observations from a re-analysis of the deposited data

How the results depend on the processing

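Both enzymes stayed higher than the control under all alternatives, and ACP5 changed more than ACP1 in each. With normexp on the median spot signal, chosen after seeing the data because the planned version needs a mean signal that the files do not hold and was not run, ACP1 changed by 0.94 under low U, 1.06 under medium U and 0.93 over all exposed arrays, ACP5 by 1.55 under low U, 1.22 under high U and 1.44 over all exposed arrays, and their difference was 0.61, 0.49, 0.44 and 0.51 at low, medium and high U and over all exposed arrays. ACP5 at medium against low U then turned to 0.00085 and ACP1 at high against low U to -0.15. Scaling to the spike-ins gave ACP1 1.55, 1.82, 1.05 and 1.47 and ACP5 2.74 under low U, 2.87 under medium U and 2.51 over all exposed arrays. It turned ACP5 at medium against low U to 0.13 and ACP1 at high against low U to -0.50 (limma adjusted p = 0.155). It also brought ACP1 at high against medium U past the threshold (-0.77, limma adjusted p = 0.0351), as it did 10781 of the 29855 tested probes. Scaling to the array median turned ACP1 at high against medium U to 0.040. Leaving out 1 array in turn, ACP5 at medium against low U ran from -0.24 to 0.022, ACP1 at high against medium U from -0.082 to 0.047 and ACP1 at high against low U from -0.021 to 0.11. The cause was not tested.

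By the scanner files' replicate numbers, same-numbered arrays of different groups had a median r of -0.0088 between their deviations (-0.27 to 0.47 over 18 pairs). Some of these pairs, among them the highest, also shared a slide. Arrays of the same slide had a median r of 0.26 over 18 pairs. By the value table's numbers, the same-numbered arrays are those of the same slide. The replicate block used the scanner files' numbers. With the replicate block, the lowest adjusted p of a dose pair was 0.957 for ACP5 and 0.993 for ACP1 in limma, and with the slide block 0.798 and 0.935. The replicate block left 645 probes called under high U, against 1033 without it. The number of probes called against the control was 1831 under low U, 3367 under medium U and 1033 under high U. It was 14938, 19150 and 600 relative to the spike-ins, 3630, 5176 and 1970 with the slide block, 746, 13009 and 344 without a filter on dim probes, and 1, 1613 and 1 when only the groups compared were fitted, which leaves 6 arrays. Leaving out 1 array gave 595 to 2768, 984 to 4216 and 160 to 1739. Over all exposed arrays 3947 were called, 14721 relative to the spike-ins, and 1704 to 4791 without 1 array. Between high and medium U, 10781 were called relative to the spike-ins and 6117 without the filter. The ACP5 probe was closest to background in the control, at 2.89 times its local background on the dimmest array.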
